A study of Homo sapiens with 4 samples.

Results

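The trafficking set of this study consisted of 9 genes taken by name from the 50868 genes in the deposited files: the chemokine receptors CXCR4, CCR7 and CCR9, the sphingosine-1-phosphate receptor S1PR1, the selectin ligand SELPLG and the integrin chains ITGA4, ITGB1, ITGAL and ITGB2. They were described by FPKM (read fragments scaled to gene length and to the depth of the library) and by counts of reads in RNA-seq libraries of Jurkat cells. Jurkat is an established line of human T-cell leukemia, labelled wild type here, so every value comes from 1 cell line and not from T cells that circulate between tissues. Cells were cultured for 24 h in the solvent DMSO or in 0.5 µM JQ1, each either alone or together with 150 ng/ml of PHA. JQ1 is a small molecule that displaces the BET bromodomain proteins from acetylated chromatin, and PHA is a plant lectin that crosslinks T-cell surface glycoproteins and activates the cell. Each condition had 1 library, 4 in all, so the comparisons between conditions were made without a test, and the 95% intervals given for ratios cover counting error only. The study asked how JQ1 changes gene expression in resting and in stimulated T cells.

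A circulating T cell leaves the blood in steps. Selectins and their ligands, of which P-selectin glycoprotein ligand 1 (PSGL-1, the product of SELPLG) is the best known on leukocytes, let the cell roll along the vessel wall. Chemokine receptors then signal through G proteins and switch integrins to a state that binds firmly, and S1PR1 later guides the cell out of the lymphoid organ along a gradient of sphingosine-1-phosphate. CXCR4 is the receptor of CXCL12 and serves retention in bone marrow and thymus, CCR7 directs cells to lymph nodes and CCR9 to the small intestine. The integrins work as pairs of chains: ITGA4 (α4) with ITGB1 (β1) forms VLA-4, which binds VCAM-1 and fibronectin, and ITGAL (αL) with ITGB2 (β2) forms LFA-1, which binds ICAM-1.

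The libraries held from 18620954 to 19685401 counts, and mitochondrial genes took 6.27% to 7.07% of them. Of 14 T-cell markers, 14 averaged at least 1 FPKM, among them CD3D, CD3E and TRBC2, and their summed FPKM was 606 with DMSO and 340 with JQ1, and with PHA added 684 and 395. Myeloid markers (7 genes, 3 at a count of 0 in every library) summed to between 0.0839 and 0.395 FPKM, and erythroid markers (4 genes, 3 at 0) to at most 0.148. Among 6 B-cell markers CD79A passed a mean FPKM of 1, with a list sum of 7.57, 1.06, 6.39 and 1.01 in the order DMSO, JQ1, DMSO + PHA and JQ1 + PHA, while MS4A1 and PAX5 had at most 2 counts in any library. Among 6 epithelial or stromal markers PECAM1, which leukocytes also carry, passed, and EPCAM and COL3A1 had no counts. COL1A1 had 92, 129, 137 and 163 counts in the order DMSO, JQ1, DMSO + PHA and JQ1 + PHA. Its FPKM was under 1 throughout and higher with JQ1, both without and with PHA. KRT8 had 10 to 21 counts and KRT18 4 to 16. The list sum, mostly PECAM1, lay between 2.26 and 19.9 FPKM. T-cell markers, CD79A and PECAM1 were thus lower with JQ1, as were several of the genes below, and their part in those results was not tested. In bulk RNA a lower level per cell and fewer cells that carry the transcript cannot be told apart.

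The start regions are shown for 4 of the genes that differed in how they stood with JQ1: CXCR4, nearly level in the 4 libraries, S1PR1 and ITGB1, higher with JQ1, and ITGA4, lower with it. The choice was made after the values were seen. The plan had been to show only genes that moved together past 2-fold in both JQ1 comparisons, which these did not. Sequences come from the RefSeq promoter table on GRCh38.p14, in which the start of the annotated canonical transcript was found for 5 of the 9 genes, CXCR4, CCR9, S1PR1, ITGA4 and ITGB1, and not for CCR7, SELPLG, ITGAL and ITGB2. Each line gives part of the 250 bases before that start, 5′ to 3′ on the strand of the gene. It is the longest stretch outside annotated exons and outside the deposited gene locus. For ITGB1, whose window lies wholly within that locus, only exons were left out. The stretches are chr2:136118166-136118399, minus strand, for CXCR4, chr1:101236769-101236864, plus strand, for S1PR1, chr2:181457136-181457201, plus strand, for ITGA4 and chr10:32958326-32958436, minus strand, for ITGB1. Capitals mark matches, on either strand, to the 4 motifs searched.
CXCR4: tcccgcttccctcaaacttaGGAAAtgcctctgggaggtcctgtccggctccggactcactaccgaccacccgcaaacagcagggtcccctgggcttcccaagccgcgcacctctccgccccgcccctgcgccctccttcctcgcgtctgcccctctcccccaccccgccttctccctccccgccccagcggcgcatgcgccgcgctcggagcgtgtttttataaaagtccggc
S1PR1: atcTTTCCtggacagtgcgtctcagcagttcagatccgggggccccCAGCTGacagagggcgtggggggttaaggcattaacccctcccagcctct
ITGA4: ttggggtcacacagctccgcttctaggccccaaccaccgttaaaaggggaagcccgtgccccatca
ITGB1: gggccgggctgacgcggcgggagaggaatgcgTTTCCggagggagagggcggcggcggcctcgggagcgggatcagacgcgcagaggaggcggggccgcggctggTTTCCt

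The motif CANNTG is the E-box, which basic helix-loop-helix factors bind. GGAAA, which reads TTTCC on the other strand, is the core that NFAT and many ETS factors recognise. The third motif, TGTGGT, is the core of RUNX factors. The last, AGATAA, is read by the GATA family. In the whole 250 bases, CXCR4 held 1 GGAAA, S1PR1 held 1 CANNTG and 1 GGAAA, ITGB1 held 2 GGAAA and ITGA4 held no match to any of the 4. CCR9 held 4 CANNTG and 1 GGAAA. No window held TGTGGT or AGATAA. Of 35116 RefSeq promoters, windows of the same length held at least 1 CANNTG in 61.8%, GGAAA in 55.6%, TGTGGT in 10.98% and AGATAA in 9.17%. The median number of matches was 1 for CANNTG and for GGAAA, so a single match is common. The 4 CANNTG of CCR9 and the 2 GGAAA of ITGB1 lay above that median. All matches describe the letters only. The windows of CXCR4, S1PR1, ITGA4 and ITGB1 were rich in G and C, at 68.0%, 64.4%, 72.8% and 78.4%, against a median of 58% over all promoters, and that of CCR9 was at 51.2%.

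With JQ1 the set split by gene: SELPLG was 4.15-fold lower, ITGA4, ITGB2 and ITGAL were lower by between 1.30-fold and 1.67-fold, ITGB1 was 1.97-fold and S1PR1 2.69-fold higher, and CXCR4 was within 1.05-fold. Of the 9 genes, 7 averaged at least 1 FPKM over the libraries and entered the counts past 2-fold, which use the log2 ratio of FPKM + 0.1 over 11503 genes. CCR7 and CCR9 were below that mean, and S1PR1, at 0.967 FPKM with DMSO, reached it through the other libraries. In JQ1 against DMSO, 1 gene (S1PR1) was at least 2-fold higher, beside 5.22% of all genes tested, and 1 (SELPLG) at least 2-fold lower, beside 8.65%. In JQ1 + PHA against DMSO + PHA, none was higher (3.69% of all genes) and 2 were lower, SELPLG and ITGA4 (8.0% of all genes). The median log2 ratio of the 7 genes was -0.37 without PHA and -0.72 with PHA, against -0.01 and -0.02 over all genes.

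Counting error alone was small for genes with many counts and larger for those with few. CCR9, at 5 and 16 counts, had an interval of 0.10 to 3.42 in JQ1 against DMSO. The interval of the log2 count ratio excluded 0 for 8 of the 9 genes in JQ1 against DMSO, 4 higher and 4 lower, and for 7 of the 7 that passed the filter, but 75.6% of all genes tested did the same. With PHA in both libraries it did so for 7 of the 9, 2 higher and 5 lower. Of the 7 that passed the filter it did so for 6, beside 72.9% of all genes tested, in either direction. Such an interval says that 2 libraries differ and not that 2 conditions do.

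**Figure D1:**
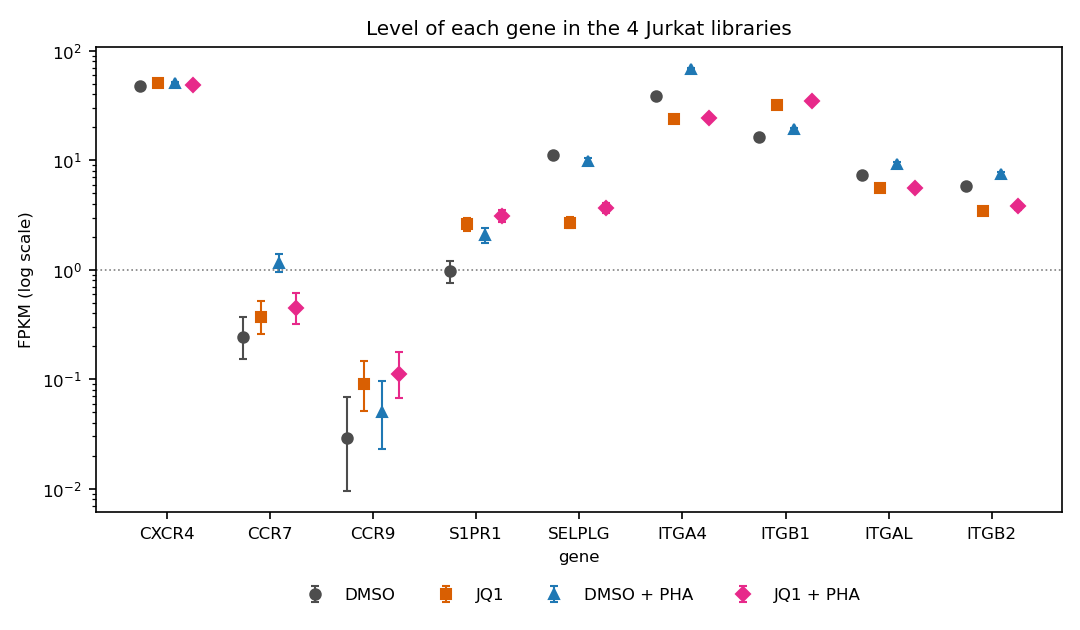
FPKM of the 9 genes on a log axis in the DMSO, JQ1, DMSO + PHA and JQ1 + PHA libraries. Points are the deposited values, bars are 95% intervals from the counts and the dotted line is an FPKM of 1. CXCR4 is nearly level in all libraries, SELPLG and ITGA4 are lowest in the JQ1 libraries, ITGB1 is highest there, and CCR7 and CCR9 lie near or under an FPKM of 1.

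SELPLG (ENSG00000110876, GRCh38 chromosome 12, 108622277-108633959, minus strand, 2 exons in the canonical transcript) encodes PSGL-1, the ligand that binds P-selectin and the other selectins during rolling. It measured 11.2 FPKM with DMSO and 2.69 with JQ1, and with PHA added 9.84 and 3.66, from counts of 1170, 295, 1080 and 380. Both JQ1 libraries lay under both DMSO libraries. Without PHA, JQ1 went with a log2 count ratio of -2.05 (95% interval -2.24 to -1.87), and 1.69% of genes had a lower ratio of FPKM. With PHA the ratio was -1.43 (-1.60 to -1.26), a 2.69-fold lower level. In the ranking of FPKM over the genes tested, SELPLG stood above 74.3% of genes with DMSO and above 30.9% with JQ1.

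PHA went with opposite differences of SELPLG in the 2 drug arms. In DMSO-treated cells the level was 1.13-fold lower with PHA (log2 count ratio -0.18, -0.30 to -0.06), and in JQ1-treated cells it was 1.36-fold higher (0.44, 0.22 to 0.67). All neighbours in the order DMSO, DMSO + PHA, JQ1 + PHA and JQ1 differed beyond counting error. A transcript annotated on the opposite strand across SELPLG, RP11-689B22.2, had 11, 0, 3 and 0 counts in the order DMSO, JQ1, DMSO + PHA and JQ1 + PHA.

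Of 23 other genes of selectins, ligand scaffolds and their glycosyltransferases, 14 averaged at least 1 FPKM. Without PHA, 2 of the 14 were at least 2-fold lower with JQ1 and none higher, beside 8.65% and 5.22% of all genes. With PHA, 1 was lower and 1 higher, beside 8.0% and 3.69%. B4GALT5, a galactosyltransferase, had a log2 FPKM ratio of -1.07 without PHA, and SLC35A1, the transporter that brings CMP-sialic acid into the Golgi, one of 1.05 with PHA. CD44, a hyaluronan receptor that can also bind E-selectin, had 7, 4, 3 and 3 counts in the 4 libraries, at or near the floor of 3 counts.

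CXCR4 (ENSG00000121966, chromosome 2, 136114349-136118165, minus strand, 2 exons) was the steadiest of the 9. It measured 48.2 FPKM with DMSO and 50.4 with JQ1, and with PHA added 51.0 and 49.2, from counts of 4587, 5017, 5078 and 4637. No pair of neighbours in the order DMSO + PHA, JQ1, JQ1 + PHA and DMSO differed beyond counting error. The highest library was 1.06-fold above the lowest, a small difference whose counting interval excluded 0 (log2 count ratio 0.08, 0.02 to 0.14). CXCR4 stood above 95.4% to 96.3% of the genes tested in each library. The log2 count ratio for JQ1 was 0.06 (0.01 to 0.12) without PHA and -0.05 (-0.11 to 0.01) with it, so the interval of the second leaves room for a level at most 1.08-fold lower from counting error. The length that the deposited FPKM of CXCR4 imply, 5062 bases, exceeds the 3817 bases of its locus in the files, so its FPKM is not an exact per-length level.

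CCR7 (ENSG00000126353, chromosome 17, 40553769-40565472, minus strand, 3 exons), the receptor of CCL19 and CCL21, was low. It measured 0.244 FPKM with DMSO and 0.372 with JQ1, and with PHA added 1.16 and 0.449, from 22, 35, 109 and 40 counts. The DMSO + PHA library stood above the other 3, and these 3 were not separated from their neighbours in order beyond counting error. With PHA, CCR7 was 4.74-fold higher in DMSO-treated cells (log2 count ratio 2.24, 1.57 to 2.98), and in JQ1-treated cells its ratio was 0.27 (-0.42 to 0.97). JQ1 went with a log2 ratio of 0.61 (-0.20 to 1.44) without PHA and with a 2.58-fold lower level with PHA (-1.37, -1.93 to -0.83).

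CCR9 (ENSG00000173585, chromosome 3, 45886504-45903177, plus strand, 3 exons), the receptor of CCL25, measured 0.0293 FPKM with DMSO and 0.0896 with JQ1, and with PHA added 0.0504 and 0.112. These are 5, 16, 9 and 19 counts. No neighbours in order differed beyond counting error, and of the 4 comparisons the interval excluded 0 only for JQ1 against DMSO (log2 count ratio 1.61, 0.10 to 3.42). The gene LZTFL1 on the opposite strand, with 1285, 2109, 2119 and 2398 counts, shares 23 of the 4376 exonic bases of CCR9, and reads of the 2 genes cannot be told apart where the counting ignored strand, which is not given in the sources used here. Among 27 other chemokine and S1P receptors, 3 averaged at least 1 FPKM, the leukotriene receptor LTB4R and the S1P receptors S1PR2 and S1PR3.

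S1PR1 (ENSG00000170989, chromosome 1, 101236888-101241518, plus strand, 2 exons), the receptor for exit from lymphoid organs, was lowest in the DMSO library. It measured 0.967 FPKM with DMSO and 2.60 with JQ1, and with PHA added 2.07 and 3.12, from counts of 76, 214, 170 and 243. The DMSO library lay under the other 3, and JQ1 + PHA and JQ1, the highest, did not differ beyond counting error. JQ1 went with a 2.69-fold higher level without PHA (log2 count ratio 1.43, 1.04 to 1.83) and a 1.51-fold higher level with PHA (0.60, 0.31 to 0.89). PHA went with a 2.14-fold higher level in DMSO-treated cells (1.10, 0.70 to 1.51) and with a ratio of 0.26 (-0.01 to 0.53) in JQ1-treated cells. S1PR1 stood above only 3.5% of the genes tested with DMSO and above 29.9% with JQ1, so it was a weakly expressed gene throughout.

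Several genes known to act on S1PR1 were measured. KLF2, a transcription factor that drives S1PR1 in naive T cells, had 14, 95, 61 and 82 counts in the order DMSO, JQ1, DMSO + PHA and JQ1 + PHA, or 0.288, 1.87, 1.20 and 1.71 FPKM. Its log2 count ratio was 2.70 (1.88 to 3.62) for JQ1 without PHA, 0.51 (0.01 to 1.01) for JQ1 with PHA and 2.06 (1.20 to 3.01) for PHA in DMSO-treated cells. KLF2 and S1PR1 were both lowest in the DMSO library, and a link between them was not tested. FOXO1, a factor upstream of KLF2 and CCR7, measured 0.845, 3.36, 1.09 and 3.09 FPKM in the same order. Its level was 3.98-fold above that of DMSO under JQ1 alone and 2.83-fold above that of DMSO + PHA under JQ1 + PHA. The log2 count ratio of CCR7 for JQ1 was 0.61 (-0.20 to 1.44) without PHA and -1.37 (-1.93 to -0.83) with it. Links of FOXO1 to KLF2 and CCR7 were not tested.

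CD69, an early activation antigen that pulls S1PR1 protein from the cell surface, measured 1.05 FPKM with DMSO and 0.766 with JQ1, and with PHA added 20.4 and 3.14. With PHA it was 19.4-fold higher in DMSO-treated cells and 4.10-fold higher in JQ1-treated cells. Its level with JQ1 + PHA was 6.49-fold below that with DMSO + PHA (log2 count ratio -2.70, -2.92 to -2.48). S1PR2, a receptor of the same ligand that opposes migration, measured 1.39, 0.582, 2.06 and 0.345 FPKM in the order DMSO, JQ1, DMSO + PHA and JQ1 + PHA. Its log2 count ratio for JQ1 was -1.26 (-1.83 to -0.72) without PHA and -2.58 (-3.28 to -1.94) with it, opposite in sign to S1PR1.

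ITGA4 (ENSG00000115232, chromosome 2, 181457202-181536187, plus strand, 28 exons) encodes the α4 chain, which pairs with β1 in VLA-4 and with β7 in the gut-homing integrin. It measured 38.9 FPKM with DMSO and 23.7 with JQ1, and with PHA added 68.4 and 24.3, from counts of 8631, 5505, 15872 and 5327. The JQ1 libraries were lowest and did not differ from each other beyond counting error, and DMSO + PHA was highest. JQ1 went with a 1.64-fold lower level without PHA (log2 count ratio -0.71, -0.76 to -0.66) and a 2.82-fold lower level with PHA (-1.49, -1.54 to -1.45). PHA went with a 1.76-fold higher level in DMSO-treated cells (0.81, 0.78 to 0.85), above that of 96.9% of genes, and with a ratio of 0.03 (-0.02 to 0.09) in JQ1-treated cells.

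ITGB1 (ENSG00000150093, chromosome 10, 32900319-33005792, minus strand, 16 exons), the β1 chain shared by VLA-4 and many other integrins, went the other way. It measured 16.3 FPKM with DMSO and 32.2 with JQ1, and with PHA added 19.2 and 34.5, from counts of 3262, 6729, 4028 and 6825. Both JQ1 libraries lay above both DMSO libraries. The level with JQ1 was 1.97-fold higher without PHA (log2 count ratio 0.98, 0.92 to 1.04) and 1.79-fold higher with it (0.84, 0.78 to 0.90). PHA went with smaller differences, 0.24 (0.17 to 0.31) for DMSO-treated cells and, under JQ1, 0.10 (0.05 to 0.15). ITGB1 lies so near the 2-fold limit that rescaling decides its side: with FPKM brought to a common total its log2 ratio for JQ1 without PHA was 1.05.

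ITGB1 has a near copy that was counted as a gene of its own. The pseudogene ITGB1P1 (ENSG00000269378, chromosome 19, 14621634-14622242) had 751, 1408, 864 and 1386 counts in the order DMSO, JQ1, DMSO + PHA and JQ1 + PHA, or 18.7%, 17.3%, 17.7% and 16.9% of the sum of both genes. With both summed, the log2 ratio for JQ1 was 0.96 (0.90 to 1.01) without PHA and 0.83 (0.78 to 0.88) with PHA, close to that of ITGB1 alone. How reads that match both genes were assigned is not given in the sources used here.

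ITGAL (ENSG00000005844, chromosome 16, 30472658-30523185, plus strand, 31 exons), the α chain of LFA-1, measured 7.30 FPKM with DMSO and 5.61 with JQ1, and with PHA added 9.32 and 5.60, from counts of 1776, 1428, 2372 and 1350. The 2 JQ1 libraries did not differ beyond counting error and the DMSO + PHA library was highest. JQ1 went with a 1.30-fold lower level without PHA (log2 count ratio -0.38, -0.48 to -0.28) and a 1.66-fold lower level with it (-0.73, -0.83 to -0.64). PHA went with a log2 ratio of 0.35 (0.26 to 0.44) under DMSO, and under JQ1 the ratio was -0.00 (-0.11 to 0.11).

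ITGB2 (ENSG00000160255, chromosome 21, 44885953-44931989, minus strand, 16 exons), the β chain common to the leukocyte integrins, was also highest with DMSO + PHA and lowest in the JQ1 libraries. It measured 5.77 FPKM with DMSO and 3.45 with JQ1, and with PHA added 7.50 and 3.80, from counts of 1294, 809, 1759 and 843. JQ1 went with a 1.67-fold lower level without PHA (log2 count ratio -0.74, -0.87 to -0.61) and a 1.97-fold lower level with PHA (-0.98, -1.10 to -0.86). The PHA log2 ratio was 0.38 (0.27 to 0.48) in DMSO-treated cells, and under JQ1 it was 0.14 (-0.00 to 0.28). The antisense gene ITGB2-AS1 shares 303 of the 7300 exonic bases of ITGB2 and had 5, 22, 25 and 24 counts, few beside those of ITGB2.

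**Figure D2:**
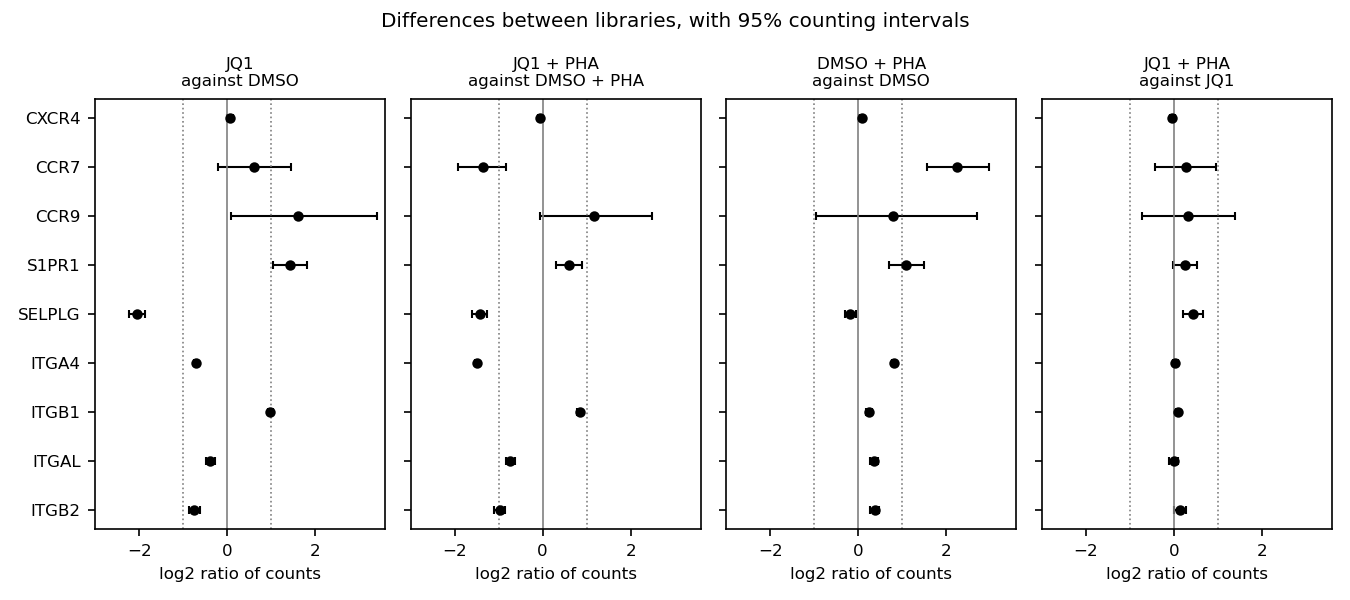
Log2 ratio of counts, each taken as a share of its library, for the 9 genes in the 4 comparisons, with 95% exact intervals as bars. The dotted lines mark a 2-fold difference in either direction. SELPLG lies left of the lower line in both JQ1 comparisons, ITGA4 does so only with PHA in both libraries, and in the JQ1 + PHA against JQ1 panel the point furthest from 0 is SELPLG at 0.44.

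The chains of VLA-4 differed in opposite directions with JQ1 and those of LFA-1 in the same direction. As a ratio of FPKM within a library, ITGA4 to ITGB1 was 2.39 with DMSO and 0.738 with JQ1, and with PHA added 3.55 and 0.704. The ratio was thus above 1 in both DMSO libraries and below 1 in both JQ1 libraries. ITGAL to ITGB2 was 1.26, 1.63, 1.24 and 1.48 in the same order, above 1 in every library. Between the pairs, ITGB1 to ITGB2 was 2.82 and 2.57 in the DMSO libraries without and with PHA and 9.32 and 9.07 in the JQ1 libraries.

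These ratios compare 2 genes and therefore rest on gene length. The length implied by the deposited FPKM was between 0.73 times (ITGB1) and 2.07 times (CCR9) the exonic length in GENCODE release 44. With that exonic length in place of the implied one, ITGA4 to ITGB1 was 3.62, 1.12, 5.39 and 1.07 in the order DMSO, JQ1, DMSO + PHA and JQ1 + PHA. The order of the 2 chains with JQ1 thus depends on the length used, while the difference between libraries does not, since a fixed length cancels. In the same order of libraries ITGB1 to ITGB2 was then 1.26, 4.17, 1.15 and 4.06. Reads of ITGB1P1, 17.3% and 16.9% of the summed count in the JQ1 libraries without and with PHA, were not added to ITGB1 in any of these ratios. The order of the chains can therefore also depend on how such reads were assigned.

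**Figure D3:**
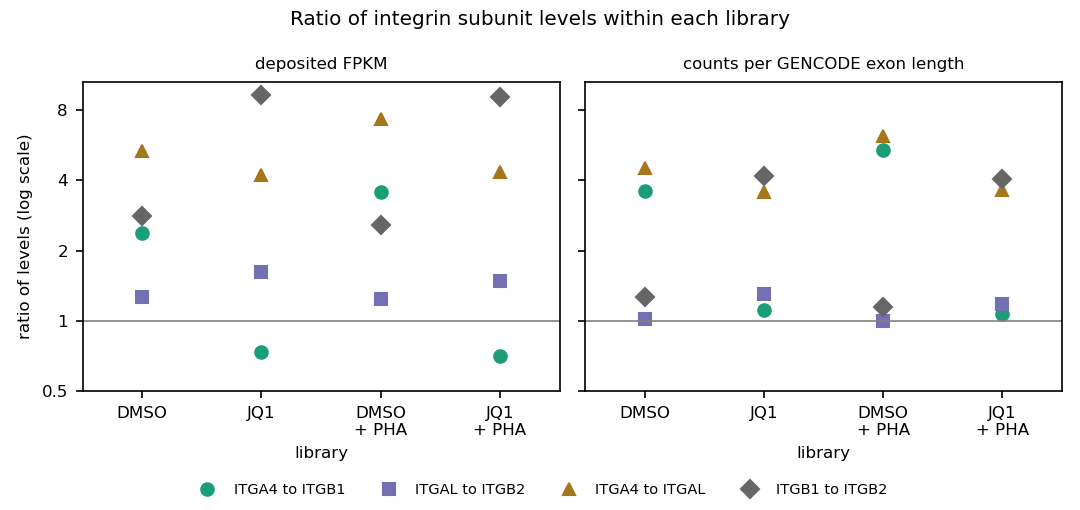
Ratio of integrin chain levels within each library on a log axis, from the deposited FPKM at left and from counts per GENCODE exonic length at right. The line marks equal levels. ITGA4 to ITGB1 drops from 2.39 with DMSO to 0.738 with JQ1 at left and from 3.62 to 1.12 at right.

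The log2 count ratio with PHA was higher in DMSO-treated than in JQ1-treated cells for 8 of the 9 genes, CCR9 among them with an interval that spans 0. The same held for 50.2% of the 11428 genes tested that had over 3 counts in every library. That share covers filtered genes only, so CCR7 and CCR9 are outside it. In DMSO + PHA against DMSO, 1 gene (S1PR1) was at least 2-fold higher, beside 2.1% of all genes, and none at least 2-fold lower, beside 1.19%. In JQ1 + PHA against JQ1, none of the 7 was past 2-fold in either direction, beside 1.04% of all genes higher and 1.03% lower. In the first comparison the counting interval excluded 0 for 8 of the 9 genes, 7 higher and 1 lower. Of the 7 that passed the filter it did so for 7, beside 49.8% of all genes tested, in either direction. In the second it excluded 0 for 2 of the 9, SELPLG and ITGB1, both higher. Both are among the 7 that passed, beside 31.4% of all genes tested. The median log2 ratio of the 7 genes was 0.35 and 0.10, against -0.01 and -0.00 over all genes.

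The difference between the PHA ratios in JQ1-treated and in DMSO-treated cells, which equals the difference between the JQ1 ratios with and without PHA, was -1.97 (-2.90 to -1.04) on the log2 scale for CCR7. It was -0.83 (-1.30 to -0.36) for S1PR1, -0.78 (-0.85 to -0.72) for ITGA4, -0.35 (-0.49 to -0.21) for ITGAL and -0.24 (-0.41 to -0.07) for ITGB2. For ITGB1 it was -0.14 (-0.22 to -0.06), for CXCR4 -0.12 (-0.20 to -0.03) and for CCR9 -0.46 (-2.30 to 1.39). Of the genes compared, 4.15% had a lower difference than S1PR1, 4.68% than ITGA4 and 14.8% than ITGAL. For ITGB2, ITGB1 and CXCR4 that share was 21.6%, 31.3% and 34.2%. SELPLG alone had a positive difference, 0.63 (0.38 to 0.88), higher than that of 95.1% of genes. The intervals cover counting error only, and the difference could not be tested over replicate cultures.

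**Figure D4:**
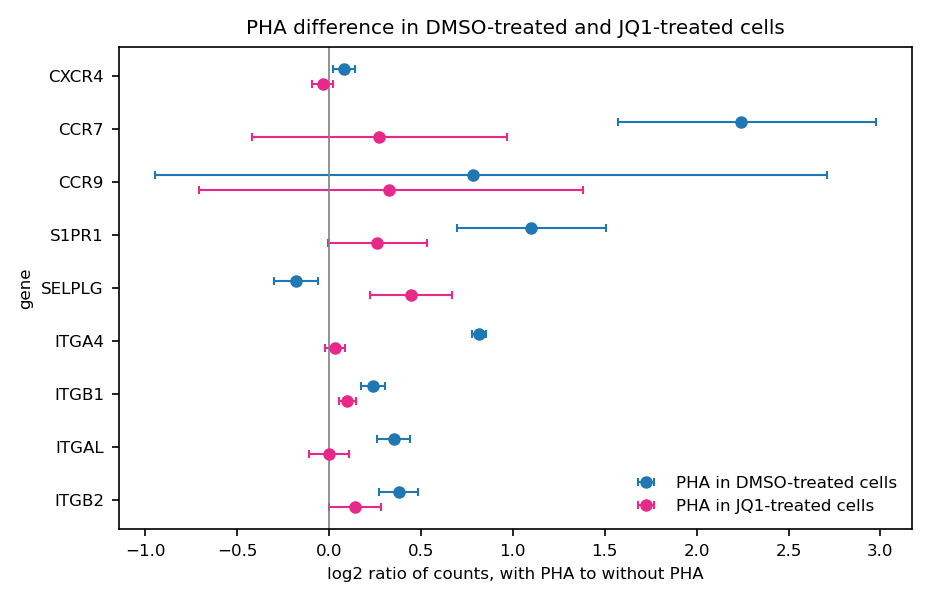
Log2 ratio of counts with PHA to without PHA for the 9 genes, in DMSO-treated cells (blue) and JQ1-treated cells (pink), with 95% exact counting intervals. In 8 genes the blue point lies to the right of the pink one, with wide overlapping intervals for CCR9, and in SELPLG it lies to the left.

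Of 204 other genes of trafficking and adhesion on 8 lists, 119 averaged at least 1 FPKM. With JQ1 alone, 6 (5.04%) stood at least 2-fold above DMSO and 15 (12.6%) at least 2-fold below it, against the 5.22% and 8.65% of all genes given above. With PHA in both libraries, 4 (3.36%) were higher and 13 (10.9%) lower, against 3.69% and 8.0%. With PHA in DMSO-treated cells 6 (5.04%) were higher and none lower, against 2.1% and 1.19% of all genes, and in JQ1-treated cells 3 (2.52%) were higher and 1 (0.84%) lower, against 1.04% and 1.03%.

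Among other integrin chains, 5 of 22 passed the filter, ITGA3, ITGA5, ITGAE, ITGAV and ITGB3. ITGB3, the β3 chain of the vitronectin receptor, named here after its values were seen, was the only one of these 5 past 2-fold in any comparison. This was in JQ1 against DMSO, where 5.22% of all genes were at least 2-fold higher. Below the filter, ITGA1, ITGA2, ITGB5 and ITGB7 were also past 2-fold in some comparison. ITGB3 measured 2.97 FPKM with DMSO and 6.59 with JQ1 (log2 count ratio 1.15, 0.95 to 1.36), and 3.42 and 6.66 with PHA (0.96, 0.77 to 1.16). ITGAE, the αE chain that binds E-cadherin, measured between 2.37 and 3.26 FPKM. ITGB7, the partner of ITGA4 in gut homing, had 25, 37, 73 and 37 counts in the order DMSO, JQ1, DMSO + PHA and JQ1 + PHA, highest in the same library as ITGA4.

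Of 44 genes of integrin activation and adhesion machinery 38 passed. Without PHA, 1 was at least 2-fold higher and 4 lower with JQ1, beside 5.22% and 8.65% of all genes. With PHA the numbers were 1 and 2, beside 3.69% and 8.0%. TLN2, a talin that couples β chains to actin, measured 1.46 and 1.42 FPKM in the DMSO libraries without and with PHA and 4.32 and 4.41 in the JQ1 libraries. RASGRP2, the exchange factor that activates Rap1 and through it the integrins of leukocytes, measured 2.12 and 2.31 FPKM in the DMSO libraries and 0.288 and 0.424 in the JQ1 libraries, with log2 count ratios of -2.88 (-3.28 to -2.51) and -2.45 (-2.78 to -2.12). ELMO1, which acts with DOCK2 on Rac, was 2.05-fold and 2.08-fold lower with JQ1. PTK2B, the focal adhesion kinase relative PYK2, was 2.05-fold higher with PHA in DMSO-treated cells and 1.20-fold higher in JQ1-treated cells.

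Signalling and desensitisation genes of chemokine receptors (19 of 25 passed) held 2 lower genes in JQ1 against DMSO, beside 8.65% of all genes. These were RGS10 and RGS19, named here after their values were seen, and none was past 2-fold in the other 3 comparisons. Ligands of the 9 genes and genes of S1P metabolism (6 of 21 passed) held 1 past 2-fold, ICAM2, a ligand of LFA-1. It was lower with JQ1 + PHA against DMSO + PHA (log2 FPKM ratio -1.35), as were 8.0% of all genes.

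Other leukocyte adhesion molecules (17 of 24 passed) held 4 lower and none higher genes with JQ1, beside 8.65% and 5.22% of all genes. With PHA in both libraries they held 6 lower and 1 higher, beside 8.0% and 3.69%. PECAM1, an adhesion molecule of leukocytes and endothelium, measured 13.99 and 19.1 FPKM in the DMSO libraries without and with PHA and 1.65 and 2.22 in the JQ1 libraries, 8.47-fold and 8.62-fold lower. CD2, an adhesion receptor of T cells that binds CD58, measured 21.4 and 28.2 FPKM in the DMSO libraries and 4.31 and 3.96 in the JQ1 libraries. The tetraspanin CD63 was 3.05-fold and 3.04-fold lower and CD6, which binds ALCAM, 3.17-fold and 3.85-fold lower. With PHA in DMSO-treated cells, the tetraspanin CD82 was 2.82-fold and the semaphorin SEMA4D 2.40-fold higher, and in JQ1-treated cells 1.13-fold and 1.15-fold.

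Factors tied to trafficking receptors (17 of 18 passed) held 4 higher and 2 lower genes with JQ1 without PHA, beside 5.22% and 8.65% of all genes. With PHA they held 1 higher and 2 lower, beside 3.69% and 8.0%. KLF2, FOXO1 and RARA passed the filter although under 1 FPKM in some libraries. For them, passing and being past 2-fold are linked. FOXO1 was higher in both JQ1 comparisons. RARA, the retinoic acid receptor through which retinoic acid induces gut-homing receptors, was lower in both, with 1.89 and 1.85 FPKM in the DMSO libraries without and with PHA and 0.646 and 0.757 in the JQ1 libraries. CCR9, one of those receptors, was at 19 counts or fewer throughout. It had 16 counts with JQ1 against 5 with DMSO, and 19 against 9 with PHA added. A link between RARA and CCR9 was not tested.

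**Figure D5:**
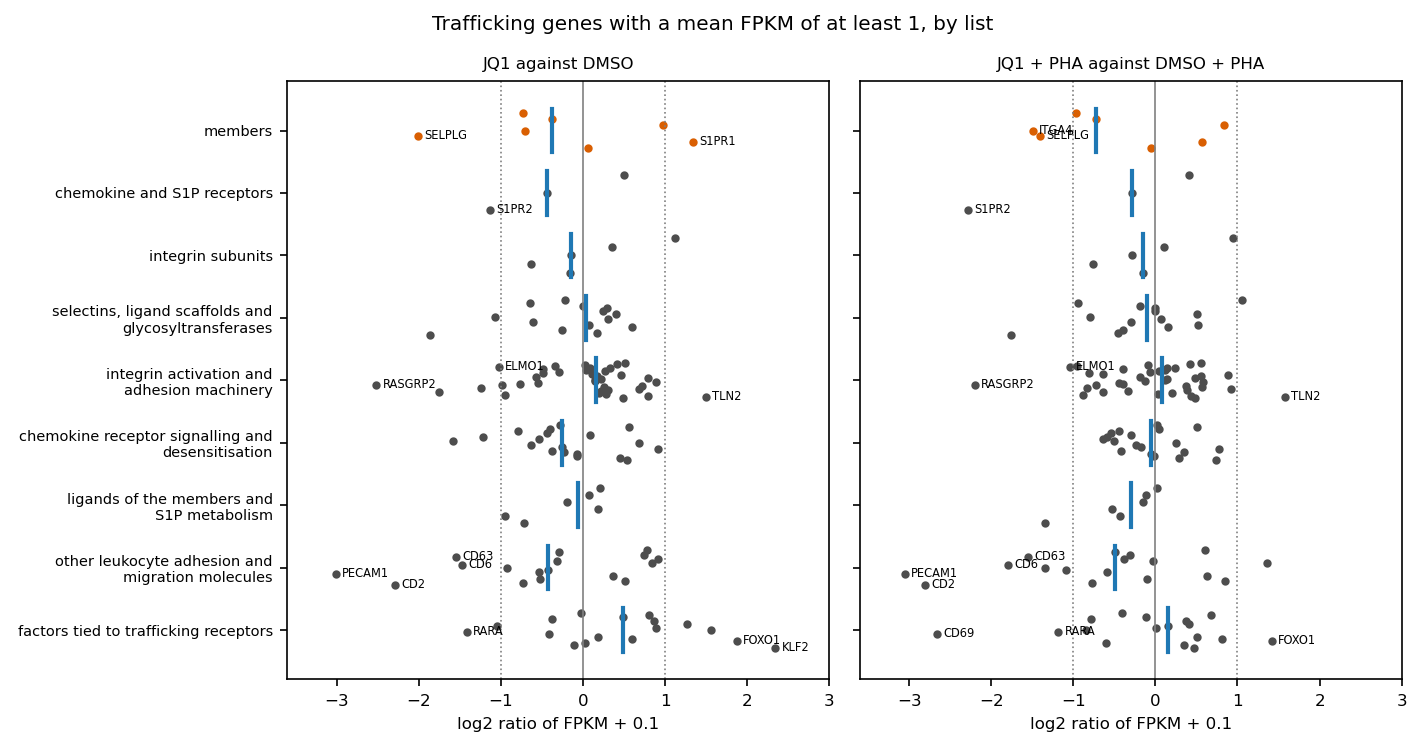
Log2 ratio of FPKM + 0.1 of the trafficking genes that averaged at least 1 FPKM, by list, for JQ1 against DMSO at left and JQ1 + PHA against DMSO + PHA at right. Each point is a gene (orange for the 9 genes described), blue bars are list medians, dotted lines mark 2-fold, and labels give most of the named genes past it. PECAM1 lies furthest to the left in both panels.

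For the genes that passed the filter and had a range of at least 2-fold, those whose pattern over the 4 libraries lay nearest were found by the root mean square distance of the centred log2 FPKM + 0.1. For SELPLG they were TEX19 (0.03), DPH2 (0.05) and HOXD13 (0.06), for ITGA4 GPR137B (0.04), HIVEP3 (0.06) and IL27RA (0.06), and for S1PR1 TCHH (0.05), RP11-174G6.5 (0.10) and KDM7A (0.10). For ITGB1 they were LPIN1 (0.01), TMEM56-RWDD3 (0.02) and LRCH4 (0.02), and for ITGB2 CAMKK1 (0.02), FLOT1 (0.03) and OAS2 (0.03). With 4 points and 11503 genes to choose from, near matches are many and describe a shape only.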

How the data were processed

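RNA-seq was done on 4 cultures of Jurkat cells, 1 library each. The authors aligned reads to GRCh38 with Hisat2 2.0.4, and the deposited files give counts of reads on each gene, not normalized, and FPKM, which the authors computed. The submitters' processing notes also list TopHat2 2.0.9 and Cufflinks 2.1.1. The counting program, its strand setting and the annotation release are not given in the sources used here, and the labels and methods name different library kits.

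From these values the log2 ratio of FPKM, with a pseudocount of 0.1, was taken for the 11503 genes that averaged at least 1 FPKM, and those past 2-fold were counted. A gene under 1 FPKM in some libraries could pass through those where it was high. For such genes, passing the filter and being past 2-fold are linked. S1PR1, S1PR2, RASGRP2, CD6, KLF2, FOXO1 and RARA were among them. The shares over all genes were taken under the same filter. Ratios of counts have exact (Clopper-Pearson) 95% intervals, and differences of log2 ratios have normal intervals from the counts. The floor was 3 counts (0.152 to 0.161 CPM). The 9 genes and the other lists were chosen with earlier results of these data known. From the other lists, the text names those genes past 2-fold in both JQ1 comparisons or with PHA in DMSO-treated cells, at most 4 and 2 per list, and KLF2, CD69, CD44, ITGB7 and ITGAE whatever their values. Further names were added after their values were seen. Items withheld for evaluation are not reported here. Proteins were not used here. Steps were tested on simulated data. Python 3.11.15 was used with scipy 1.17.1, pandas 2.3.3, numpy 2.4.6 and matplotlib 3.10.9. Scaling factors alone came from DESeq2 1.42.0 and edgeR 4.0.16 under R 4.3.3.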

Additional observations from a re-analysis of the deposited data

Results flagged for a closer look

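SELPLG stood out because its difference with PHA had opposite signs in the 2 drug arms, each with a counting interval that excluded 0. It was 1.13-fold lower in DMSO-treated cells and 1.36-fold higher in JQ1-treated cells. CXCR4 and ITGAL also had opposite signs, but with intervals that spanned 0 in JQ1-treated cells. The log2 ratios of SELPLG differed by 0.63 (95% counting interval 0.38 to 0.88). With 1 library per condition the difference was not tested.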

How the results depend on the processing

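The scaling, the fold threshold, the low-value filter and the pseudocount were varied. Percentages in brackets give the share of all genes tested under the same setting. In JQ1 against DMSO, 2 of the 7 genes that passed the filter were past 2-fold (13.9%). The number was 1 with a pseudocount of 1 FPKM (7.66%), 1 with a mean FPKM of at least 5 (9.99%), 5 at 1.5-fold (34.1%) and 1 at 3-fold (4.54%). In JQ1 + PHA against DMSO + PHA it was 2 (11.7%), with 3 without a filter (8.85%), where CCR7 joined, 5 at 1.5-fold (29.5%) and 0 at 3-fold (3.87%). In DMSO + PHA against DMSO it was 1 (3.29%), with 0 at a pseudocount of 1 FPKM (1.64%) and 2 without a filter (5.09%). It was 0 at a mean FPKM of at least 5 (1.82%), 2 at 1.5-fold (9.41%) and 0 at 3-fold (1.16%). A common FPKM total (13.8%) or DESeq2's size factors (13.7%) put ITGB1 past 2-fold in JQ1 against DMSO, which made 3. No scaling moved the median log2 ratio of all genes by 0.1 or more. Of the recomputed log2 ratios of single genes, 207 moved by less than 0.5 times the width of the counting interval, 13 by more, and none with an interval excluding 0 changed sign. With GENCODE exonic lengths, an alternative added after the data were seen, ITGA4 to ITGB1 turned from below to above 1 with JQ1 (1.12) and JQ1 + PHA (1.07), and ITGAL to ITGB2 with DMSO + PHA to 0.998. CCR7 and CCR9 are limited by counts, at 5 to 109.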
